A study of Elaeis guineensis with 15 samples.

Results

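Of 51804 contigs in an oil palm fruit assembly, 40 are described here whose reads were at least 4-fold higher after ethylene in the ripe fruit abscission zone and under 1.5-fold in the ripe pedicel and the immature abscission zone. The abscission zone (AZ) is the layer at the fruit base where adjoining cells separate so that the fruit is shed. Ethylene is a gaseous hormone that promotes this in ripe fruit, and the cell walls between the separating cells are loosened by enzymes such as polygalacturonases. The pedicel below the fruit, taken without the AZ, serves as a neighbouring tissue that does not separate.

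All samples came from Elaeis guineensis of the tenera clone C. Fruit bases with the AZ at 150 days after pollination (DAP; AZ150) and at 30 DAP (AZ30), and pedicels labelled 150 DAP (P150), were taken before ethylene (0 h) and after 3, 6 and 9 h in 10 μl/l ethylene. Each of these 12 conditions was measured in 1 pyrosequencing library. Field AZ at 30, 120 and 160 DAP, without added ethylene, was measured in 1 Illumina library each. AZ samples were pools of dissected fruit bases, so they also hold tissue next to the AZ, and in such bulk samples fewer cells of a type and less RNA per cell cannot be told apart. Untreated tissue at 3, 6 and 9 h was not analysed here, so hours in the box and hours of ethylene cannot be told apart. No condition has a replicate library, so no difference below has a replicate check, and the 95% intervals given are exact conditional intervals that cover counting error only.

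The ratio that chose the contigs is the pooled 3, 6 and 9 h level over the 0 h level of the tissue, with a 0 h count of 0 set to 1 read and at least 20 treated reads in AZ150. These ratios are therefore a description and were not tested. Of 2678 contigs with 20 treated AZ150 reads, 325 (12.1%) reached 4-fold in AZ150, 66.8% were under 1.5 in P150 and 56.8% were under 1.5 in AZ30. The thresholds were met by 41 contigs, and 1 of them, the polygalacturonase EgPGAZ2, was among 6 contigs left out by name. Just inside the limit were CL1Contig4952 and CL1Contig772 at 4.01 and CL1Contig6473 at 4.14, and just outside were CL1Contig15784 (EgBETA-UP/PYD3), CL1Contig17484 and CL1Contig1884, all at 3.82.

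Depth sets what these ratios can say. The libraries hold 26560 to 302391 reads in contigs, and 1 read is worth 0.331 to 3.77 reads per 100000, the scale used for all levels below. Numbers given below simply as reads are unscaled counts. They do not compare directly between libraries, and a rise in counts can be a fall in level. In AZ150 at 0 h, 35 of the 40 contigs had 2 or fewer reads and 5 had none. The AZ150 ratio had a median of 7.65 (4.01 to 18.7), and its interval lay above 1 for 38 contigs but at 4 or more for only 2. The median ratio was 0.813 in P150 and 0.612 in AZ30, where the 0 h library is the smallest. The interval reached 4 or more for 8 contigs in P150 and for 28 in AZ30, counting those with no upper limit. These counts include CL1Contig7116 in P150 and CL1Contig9735 in AZ30, which had no read there and so have no interval. At this depth a 4-fold ratio in immature AZ lies within the interval for most of the 40, so they are called here the chosen contigs, not contigs induced in 1 tissue alone.

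**Figure D1:**
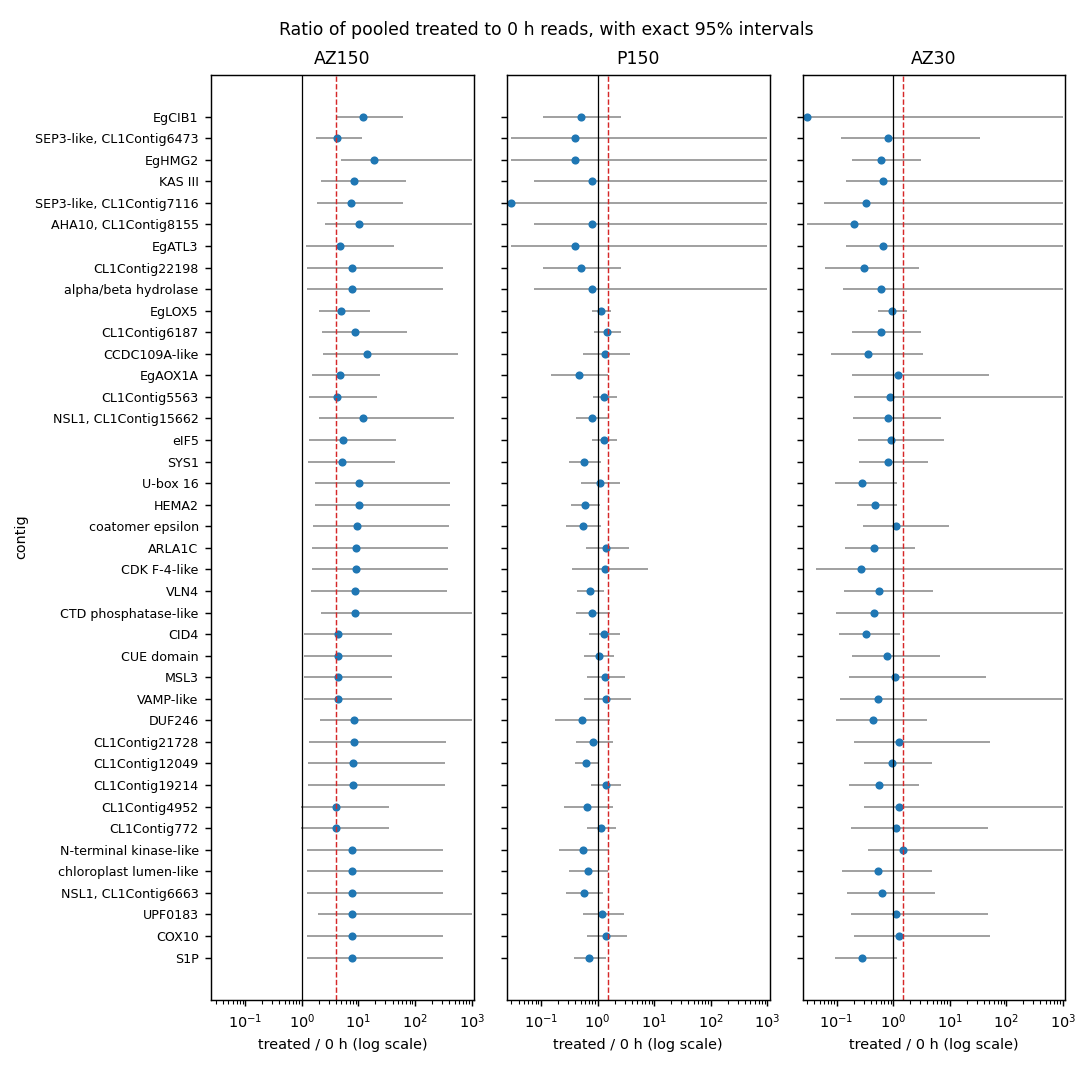
Ratio of pooled treated to 0 h reads for each chosen contig (points, log axis) in AZ150, P150 and AZ30, with exact 95% intervals (lines); dashed lines mark 4 in AZ150 and 1.5 in the other tissues. Lines that reach the right edge have no upper limit, points at the left edge are ratios of 0, and a full-width line there means that no read was found in the tissue.

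An annotation was at hand for 32 of the 40 contigs, matching 30 RefSeq transcripts, and 8 had none. Primers were at hand for 3 of the contigs described most closely below, a transcription factor, a mevalonate pathway enzyme and a thioesterase. They are printed 5′ to 3′, as the study designed them, because they are the sequences that identify these transcripts.
EgCIB1 sense: ttgggatattgctggcttg
EgCIB1 antisense: atcgggacacataacctcca
EgHMG2 sense: ttccctcatgtcagctctcg
EgHMG2 antisense: tgatgggctactttgt
EgATL3 sense: cggaggattcagaaggttgt
EgATL3 antisense: cactctcttcaatcagccact

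Summed over the 40 contigs, AZ150 went from 60.4 reads per 100000 at 0 h to 408, 425 and 479 at 3, 6 and 9 h. P150 held 209, 254, 167 and 209 at the same times, and AZ30 held 294, 239, 216 and 218. The rule itself sets a low 0 h sum and high treated sums in AZ150. Above their own 0 h level at all 3 times in AZ150 were 37 contigs, and 11 were higher at each successive time. The highest AZ150 level fell at 3 h for 12 contigs, at 6 h for 10 and at 9 h for 18.

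**Figure D2:**
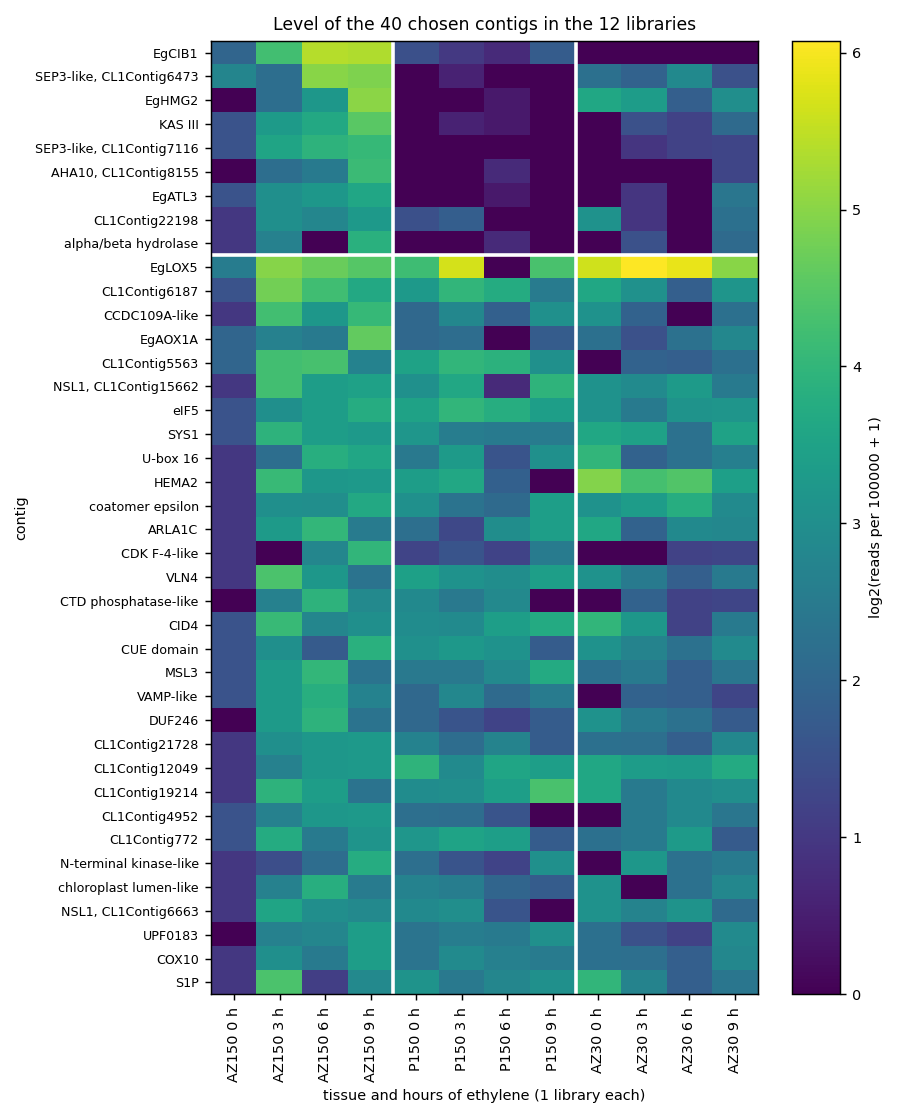
Level of the 40 chosen contigs (rows) in the 12 libraries (columns) as log2(reads per 100000 + 1), 1 library per column. Above the white horizontal line are the 9 contigs with 10 or fewer P150 reads, dark in P150, and below it are 31 contigs whose median level is lowest in AZ150 at 0 h.

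The chosen contigs fell into 9 with 10 or fewer reads over the 4 P150 libraries (0 to 9 reads) and 31 with more (13 to 147 reads). This limit was set after the values were seen. The 9 had a median AZ150 level of 1.95, 7.09, 8.26 and 16.5 at 0, 3, 6 and 9 h. Their median in P150 was 0 at 0, 3 and 9 h and 0.331 at 6 h, and in AZ30 it was 0, 0.923, 0 and 3.26. The 31 had a median AZ150 level of 0.975, 8.86, 8.26 and 8.65, whereas their P150 median was 6.33, 5.99, 4.63 and 7.21 and their AZ30 median was 7.53, 4.61, 3.83 and 5.13. All 31 had a higher 0 h level in P150 than in AZ150, as did 1 of the 9. A low AZ150 level at 0 h is set by the rule, which picks contigs with few 0 h reads there, so nothing is read from it. By its definition the smaller group was rarely read in pedicel. The interval of the treated level in AZ150 over P150 lay above 1 in all 9 and in 14 of the 31. For the 9 this is fixed by the limit of 10 P150 reads and the minimum of 20 treated AZ150 reads. In 16 of the 40, the treated AZ150 level exceeded both other tissues with intervals above 1. The rule favours contigs with a high treated AZ150 level. The same share over all contigs was not computed, so these counts only describe the chosen contigs.

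**Figure D3:**
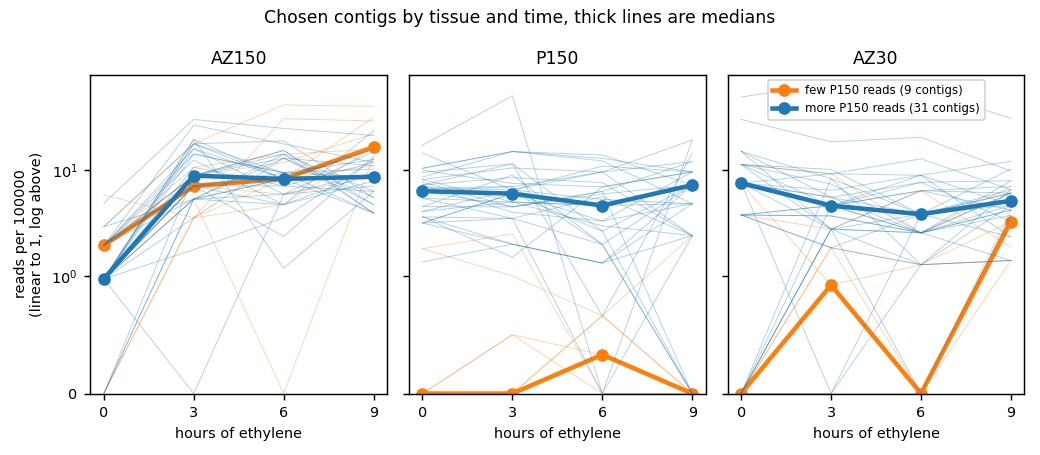
Level of each chosen contig (thin lines) and group medians (thick lines) by hours of ethylene in AZ150, P150 and AZ30, on an axis that is linear to 1 read per 100000 and logarithmic above. Before ethylene the median of the group with more P150 reads is 0.975 in AZ150, 6.33 in P150 and 7.53 in AZ30, and the group with few P150 reads reaches 16.5 in AZ150 at 9 h.

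Of the 9 contigs with few pedicel reads, EgCIB1 had the highest treated AZ150 level. EgCIB1 (CL1Contig9735) encodes a bHLH protein whose Arabidopsis relative binds a cryptochrome and promotes flowering. It had 3, 10, 35 and 51 reads in AZ150, or 2.92, 17.7, 41.3 and 40.1 per 100000. P150 held 4, 2, 2 and 1 reads and AZ30 held none at any time. The AZ150 levels at 6 and 9 h were thus the highest of the 12 libraries, and the ratio was 12.2 (4.06 to 60.4). Its treated level was 38.9-fold higher in AZ150 than in P150 (16.1 to 123) and at least 47.8-fold higher than in AZ30, against a floor of 3 reads over the treated AZ30 libraries.

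CL1Contig7116 is annotated as SEPALLATA3 (SEP3), a MADS-box factor that specifies floral organs in Arabidopsis. Its reads were 2, 6, 12 and 20 in AZ150, 0 in all P150 libraries and 0, 1, 1 and 3 in AZ30. CL1Contig6473 matches the same RefSeq transcript. Its other annotations are split between a MADS-box protein, as for CL1Contig7116, and a calmodulin-binding protein. CL1Contig6473 had 6, 2, 26 and 37 reads in AZ150, so it lay below its 0 h level at 3 h and above it later. P150 held 1 read in all and AZ30 held 1, 3, 5 and 4.

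The other 6 contigs of this group include 3 enzymes of lipid and isoprenoid metabolism. EgHMG2 encodes hydroxymethylglutaryl-CoA reductase, the rate-limiting enzyme of the mevalonate pathway. Its AZ150 reads were 0, 2, 7 and 40, or 0, 3.55, 8.26 and 31.5 per 100000, with 1 P150 read in all. AZ30 held 3, 10, 2 and 15 reads of EgHMG2, or 11.3, 9.23, 2.55 and 6.99 per 100000. Its pooled treated level in AZ150 was at least 6.25-fold higher than at 0 h, against a floor of 3 reads, with most reads at 9 h, and immature AZ already held reads of it before ethylene. EgATL3, an acyl-lipid thioesterase that releases fatty acids, had 2, 4, 7 and 14 reads in AZ150, 1 in P150 and 0, 1, 0 and 9 in AZ30. KAS III (CL1Contig11451), which starts fatty acid synthesis in plastids, had 2, 5, 10 and 28 reads in AZ150, while P150 held 0, 1, 1 and 0 and AZ30 held 0, 2, 1 and 7. In both, the AZ150 count was highest at 9 h, as it also was in AZ30. The proton pump AHA10 (CL1Contig8155), a P-type ATPase that moves protons across membranes, had 0, 2, 4 and 21 reads in AZ150, 2 in P150 at 6 h and 3 in AZ30 at 9 h. The last members of this group, an alpha/beta hydrolase (CL1Contig9601; 1, 3, 0 and 17 AZ150 reads) and CL1Contig22198 (1, 4, 5 and 11), are named after their values were seen.

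EgAOX1A, the mitochondrial alternative oxidase that bypasses the cytochrome pathway, had 3, 3, 4 and 30 reads in AZ150. P150 held 7, 7, 0 and 1 and AZ30 held 1, 2, 3 and 13. Its AZ150 count was thus highest at 9 h, with 30 of 40 reads, and its ratio was 4.72 (1.49 to 23.9). EgLOX5, a lipoxygenase that oxygenates polyunsaturated fatty acids, was the most read of the 31 contigs. It had 5, 17, 21 and 27 reads in AZ150, while P150 held 38, 101, 0 and 8 and AZ30 held 13, 72, 45 and 66. Its levels per 100000 were 4.87, 30.1, 24.8 and 21.2 in AZ150. In P150 they were 17.2, 50.4, 0 and 19.2, and in AZ30 48.9, 66.4, 57.5 and 30.8. Its treated level was 0.531 times that of AZ30 (0.394 to 0.708) and 1.21 times that of P150 (0.875 to 1.66), so after ethylene it was lower in ripe than in immature AZ.

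Transport and vesicle traffic holds 7 of the annotated contigs, 4 of them placed there by hand after the contigs were known. CL1Contig13232 resembles the animal mitochondrial calcium uniporter and had 1, 10, 7 and 20 AZ150 reads, a ratio of 14.1 (2.39 to 574). The coatomer epsilon subunit of Golgi vesicle coats (CL1Contig5176) had 1, 4, 6 and 15, and the Golgi protein SYS1 (CL1Contig2882) had 2, 8, 8 and 11. The small GTPase ARLA1C (CL1Contig18927) had 1, 5, 13 and 6, so its highest count was at 6 h. Each of these rests on 1 or 2 reads at 0 h. In P150 at 0 h they held 7, 16, 18 and 8 reads in the same order, or 3.17, 7.24, 8.14 and 3.62 per 100000.

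Contigs of other classes with more pedicel reads are given next. HEMA2 (CL1Contig8550), glutamyl-tRNA reductase at the start of tetrapyrrole synthesis, had 1, 9, 7 and 11 reads in AZ150, while P150 held 21, 23, 8 and 0 and AZ30 held 8, 20, 16 and 21. Villin VLN4 (CL1Contig1090), which binds actin, had 1, 11, 7 and 5 in AZ150 and 22, 15, 21 and 4 in P150. Translation initiation factor eIF5 (CL1Contig24940) had 2, 4, 8 and 16 in AZ150 and 23, 30, 39 and 4 in P150. All 3 rest on 1 or 2 AZ150 reads at 0 h, a count the rule used. Of the protein turnover class, a U-box ubiquitin ligase (CL1Contig5523) had 1, 2, 11 and 14 AZ150 reads and the site-1 protease S1P (CL1Contig9553) had 1, 11, 1 and 8. The CDK F-4-like kinase CL1Contig6274 (1, 0, 5 and 19) and CL1Contig13178, annotated as kinase-like (1, 1, 3 and 16), were both highest at 9 h.

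Some genes were split over several contigs. Of 4 genes of chosen contigs with more than 1 annotated contig, 1 met the thresholds when its contigs were summed. That was NSL1, whose Arabidopsis relative limits cell death, with CL1Contig15662 and CL1Contig6663 both chosen and a summed ratio of 9.75. The SEP3-like gene had 39 reads at 0 h over 3 contigs, 31 of them in CL1Contig22894, and a summed ratio of 3.18. AHA10 summed to 6.45 in AZ150, to 2.74 in P150 and, with its 0 h count of 0 set to 1 read, to 2.91 in AZ30, and the CDK F-4-like gene to 2.15 in AZ150. Summing thus leaves 36 of the 40, and the SEP3-like, AHA10 and CDK F-4-like contigs are not in them. Only annotated contigs could be summed. The 36 include the 8 chosen contigs without an annotation, and contigs of the other genes that lack one were not added.

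**Figure D4:**
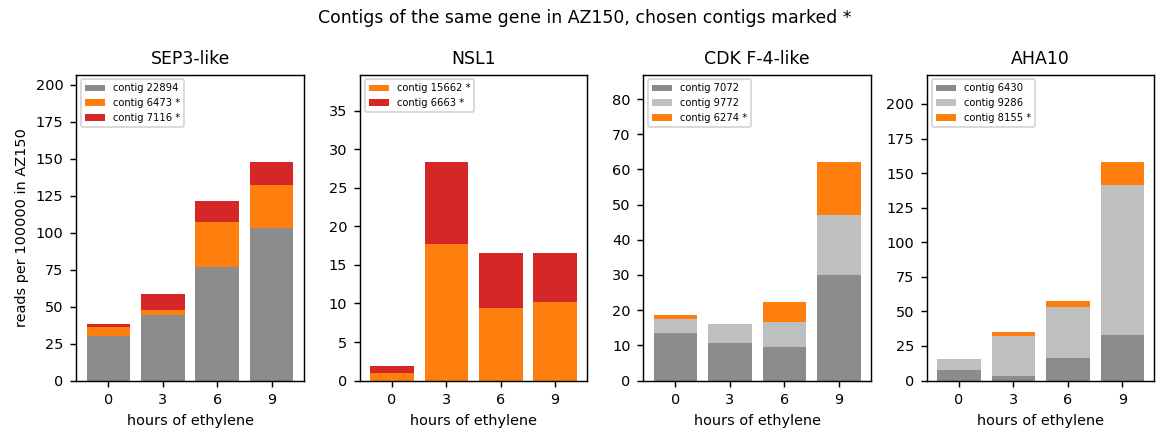
Reads per 100000 in AZ150 at 0, 3, 6 and 9 h for the 4 genes with more than 1 annotated contig, stacked by contig, with chosen contigs marked by an asterisk. In the SEP3-like, CDK F-4-like and AHA10 genes most reads lie in contigs that were not chosen.

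Other pathways of abscission were looked for by list. Of the contigs with 20 treated AZ150 reads only 1.49% were chosen, so no chosen contig in a short list says little, and 12.1% reached 4-fold in AZ150. The lists hold annotated contigs only, which the study had called as differing with ethylene in these same AZ150 libraries. Shares at 4-fold within the lists are raised by that choice, so they cannot be set against the 12.1%. Reads at 0 h also count towards the 20 in the lists. Of 6 annotated pectin degradation contigs none was chosen, although all 5 with 20 AZ150 reads reached 4-fold there and the sum of the 6 went from 3.90 reads per 100000 at 0 h to 722 at 9 h. The contigs left out by name include the polygalacturonases EgPG4, EgPGAZ1 and EgPGAZ2, so this absence is in part set by the rule. None of 15 contigs for other wall hydrolases and expansins, 27 for ethylene synthesis and response and 18 for glycolysis was chosen, and 7 of 13, 6 of 22 and 4 of 17 with 20 reads reached 4-fold in AZ150. Markers of neighbouring tissue also moved in AZ150. The 8 mesocarp contigs, KAS III among them, summed to 265, 236, 159 and 142 per 100000, against 55.9 to 89.3 in P150 and 46.2 to 88.1 in AZ30. Of the 7 with 20 AZ150 reads, 2 rose at least 4-fold in AZ150 and none fell 4-fold. The falling sum therefore does not stand for each contig in the list. The 1 green tissue contig went from 37.0 to 14.9 by 9 h. The 1 contig matched by the vascular list is the laccase EgLAC7, itself one of the contigs left out by name, which went from 0.975 to 158, so that list gives no separate measure of vascular tissue. The part of these tissues in the results was not tested.

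The field libraries were not used to choose the contigs. Their values are RPKM summed per gene, compared as log2 of the ratio after adding 0.1 RPKM, and a gene was called at 2-fold with 1 RPKM in either library. Of 27 genes of chosen contigs, 6 (22.2%) were higher at 160 than at 120 DAP and 2 were lower. Among all genes 8.91% were higher and 29% were lower, but among genes of all annotated contigs 20.8% were higher, a share near that of the chosen contigs, and 19.2% were lower, beside 7.41% of the chosen. Against 30 DAP, 11 (40.7%) were higher at 160 DAP and 3 were lower, beside 13.9% and 44.1% of all genes and 47.8% higher of annotated ones. Contigs at least 4-fold higher after ethylene in both AZ150 and P150 had 61 of 123 genes (49.6%) higher at 160 than at 120 DAP. The annotated contigs, from which the 27 genes also come, were called by the study as differing with ethylene in AZ150. Part of them were also retained there for a matching field profile, so their share is no neutral reference. The share higher at 160 DAP was near that of annotated genes in the field, and no difference between these shares was tested.

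Single genes differed widely in the field. EgHMG2 was at 12.6, 10.8 and 174 RPKM at 30, 120 and 160 DAP, 16.1-fold higher at 160 than at 120 DAP. EgATL3 was at 3.60, 17.4 and 61.9 RPKM, a log2 ratio of 1.82 from 120 to 160 DAP, and EgAOX1A was at 70.5, 152 and 449, a log2 ratio of 1.56. These 3 were highest in the AZ of the age at which fruit was shed. EgCIB1 (3.53, 105 and 121) and KAS III (2.98, 31.4 and 31.1) differed between 30 and 120 DAP and hardly after. A VAMP-like vesicle fusion protein (CL1Contig8782) was at 1.35, 3.44 and 8.04, and UPF0183 (CL1Contig7242) at 18.7, 13.9 and 29.4. In the other direction, NSL1 was at 68.5, 48.1 and 15.6 and a DUF246 protein (CL1Contig21065) at 13.8, 30.8 and 10.2. EgLOX5 was at 172, 122 and 77.5, lower by less than 2-fold from 120 to 160 DAP. HEMA2 (142, 38.2 and 42.8) was lower at 120 than at 30 DAP and differed little after.

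Of the 5 field genes whose chosen contig had few P150 reads, 3 were higher at 160 than at 120 DAP and all 5 at 160 than at 30 DAP, with median log2 ratios of 1.43 and 4.07. The 5 are EgHMG2, EgATL3, EgCIB1, KAS III and AHA10, the last at only 0.0119 RPKM at 30 DAP. Over its 3 annotated contigs the AHA10 gene held 31 P150 reads, and with P150 reads counted per gene the group is 4 genes, of which 2 were higher than at 120 DAP and 4 than at 30 DAP. Of the 22 with more P150 reads, 3 and 6 were higher, with medians of -0.02 and 0.33. Of all genes 8.91% were higher at 160 than at 120 DAP and 13.9% than at 30 DAP, and of annotated ones 20.8% and 47.8%. The limit on P150 reads was set after the values were seen, and the difference between these groups was not tested.

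**Figure D5:**
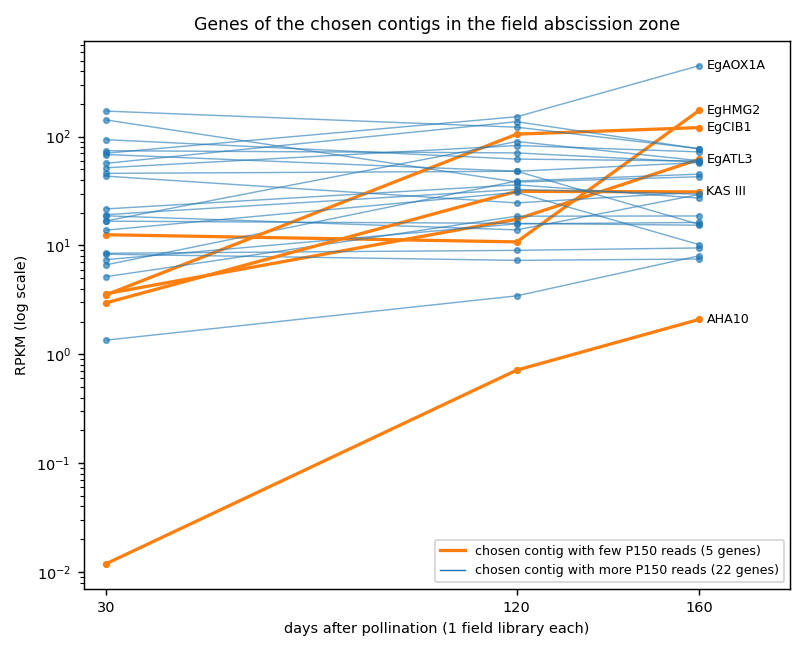
RPKM (log axis) of the 27 genes of chosen contigs in the field AZ at 30, 120 and 160 DAP, 1 library each, with the 5 genes whose chosen contig had few P150 reads in orange. EgHMG2 reaches 174 and EgAOX1A 449 RPKM at 160 DAP, and the blue lines run in both directions.

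The choice itself depends on depth and scaling. With TMM scaling, 20 contigs met the thresholds, all of them among the 40. Without the 9 h libraries 7 did, 3 of them among the 40, without the 6 h libraries 17 (10) and without the 3 h libraries 24 (17). With a 0 h count of at least 3, 20 did (10). EgCIB1 was the 1 contig chosen under all of these settings, and it was also among the 6 chosen with a minimum of 40 reads.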

How the data were processed

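Abscission was measured in 12 pyrosequencing libraries of AZ and pedicel tissue and 3 Illumina libraries of field AZ. The authors assembled the tagged pyrosequencing reads de novo and deposited raw counts of reads per contig. Beside them, 1 file has 17 unnamed columns, left aside here. Field reads were trimmed (Cutadapt), aligned to predicted transcripts (BWA-MEM) and tallied with SAMtools, and the authors deposited them as RPKM under headers that say read counts. The sources used here name no versions. The pedicels are labelled 150 DAP, whereas the study's methods give another age.

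Each count was divided by its library's total in contigs and multiplied by 100000, and ratios have exact conditional 95% intervals, with a floor of 3 reads for a count of 0. Intervals and floors cover counting error only. Field transcripts of a locus were summed, and 0.1 RPKM was added before log2. No test was run on the ethylene ratios, which chose the contigs, or with 1 library per group. TMM factors came from edgeR 4.0.16 in R 4.3.3, intervals from scipy 1.17.1 and figures from matplotlib 3.10.9, with pandas 2.3.3 and numpy 2.4.6 under Python 3.11.15. Scripts were tested on simulated data.

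Contig annotation came from the study's supplementary tables of contigs called as differing with ethylene in AZ150. These cover 1050 contigs (2.03%) and are held in part. RefSeq gene names were used without coordinates, because the assembly differs from that of the files. Function classes were assigned by words in the annotation and corrected by hand for 10 contigs. Members and lists were chosen with earlier results of these data known. Named contigs are the 10 annotated ones with most treated AZ150 reads, the 10 with the largest ratio, those at the threshold, up to 4 per class, the extremes of the field ratio and the highest in P150 and AZ30. Promoter motifs were not analysed here. Alternatives covered the scaling, the 0 h floor, single treated times, the read minimum, the RPKM added and its minimum, rescaling and single transcripts.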

Additional observations from a re-analysis of the deposited data

Results flagged for a closer look

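Contigs above their 0 h level at all 3 treated times in AZ150 and below it at all 3 times in P150 numbered 8, and 15 did the same against AZ30. They were picked out because every treated library of one tissue moved opposite to those of the other. The rule that chose the contigs favours this pattern, the libraries of a tissue share 1 library at 0 h, and the difference was not tested. In AZ30 at 0 h 1 read is worth 3.77 per 100000, so few reads there can place all treated levels below it. The share of all contigs with this pattern was not computed, so nothing about the chosen contigs is read from these counts.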

How the results depend on the processing

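The number of chosen contigs, 40, became 20 with TMM scaling (all 20 of them among the 40), 20 with a 0 h count of at least 3 (10), 24 without the 3 h libraries (17), 17 without the 6 h libraries (10) and 7 without the 9 h libraries (3). It became 197 with a minimum of 10 treated reads and 6 with a minimum of 40. Adding 0.5 read gave 36 (27) and an unweighted mean of the 3 times 43 (31). Summing the annotated contigs of a gene, an alternative chosen after seeing the data, left 36. The causes were not tested. All 224 AZ150 ratios of the 32 annotated contigs under the alternatives that change the ratio stayed above 1 and inside their main intervals. The contigs were chosen at 4-fold from the same reads and the intervals are wide, so this is no check. With a 0 h count of at least 3, 8 of the 32 stayed at 4 or more (lowest 2.55). Without the 9 h libraries 25 did (lowest 1.70), and under the other alternatives 26 to 32. In the field, median rescaling, which shifts log2 ratios by 0.54 (160 to 120 DAP) and 0.70 (160 to 30 DAP), moved the median of the 27 genes to 0.57 against 120 DAP and 1.18 against 30 DAP, and the genes higher than at 30 DAP to 17, beside 24.6% of all genes. The other field alternatives left the counts at 5 or 6 against 120 DAP and 10 or 11 against 30 DAP. No paired analysis was possible because each condition has 1 library and the labels give no replicate numbers. Depth limits the AZ30 ratios most, since the 0 h library has 26560 reads.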
